A study of Mus musculus with 28 samples.

Results

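Marrow-derived (donor) cells of the mouse leptomeninges, the thin membranes on the brain surface, were compared with marrow-derived cells of the brain parenchyma. The comparison used 16 of the 28 libraries of the series, chosen by their labels as GFP-negative cells, with 8 libraries per compartment. Hosts were lethally irradiated Cx3cr1 gfp/+ mice, in which host macrophages carry GFP. They received bone marrow of the genotype hDNMT3A fl/fl without Cre (control) or of the genotype Vav-Cre: hDNMT3A fl/fl (mutant), where Vav-Cre recombines throughout the blood lineage. Cells were sorted 16 weeks after transplantation. All groups therefore shared irradiation, a transplant and a floxed hDNMT3A allele in the donor cells. The 4 donor groups were control leptomeninges, mutant leptomeninges, control parenchyma and mutant parenchyma, with 4 libraries each. The host groups, GFP-positive cells of the same chimera types, had 4 libraries per genotype from parenchyma and 2 per genotype from leptomeninges. The labels call the parenchymal cells microglia and the leptomeningeal cells macrophages, and they leave unsaid whether a library is an animal of its own. The p-values below therefore refer to differences among libraries, which may be technical. Leptomeningeal cells were rinsed off the surface of the collagenase-treated intact brain, while parenchyma was digested a second time and freed of myelin on Percoll, so this handling and the compartment cannot be told apart.

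Brain macrophages fall into parenchymal microglia, which arise from the embryonic yolk sac and renew themselves locally, and border-associated macrophages of the meninges, perivascular space and choroid plexus. After irradiation both niches can be refilled by cells of the marrow, which pass through a monocyte stage and take on part of the resident program. Microglial identity depends on transforming growth factor beta (TGF-beta) and on transcription factors such as Sall1. Border macrophages express scavenger receptors and C-type lectins, receptors that bind sugars on microbes and dying cells.

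RNA was counted with MARS-seq, which captures the polyadenylated 3′ end of transcripts and counts unique molecular identifiers (UMIs). Donor leptomeningeal libraries held 1631558 to 3066506 UMIs and donor parenchymal libraries 479077 to 1013608, so the parenchymal side was shallower in every library. A gene with 0 UMIs could have been present at up to 1.15 to 2.06 CPM in the former and 2.86 to 6.20 CPM in the latter, the level of 3 UMIs on the scale used below, which covers counting error only. Levels are TMM-scaled counts as CPM (UMIs of a gene per 1000000 UMIs), differences are leptomeninges minus parenchyma on the log2 scale ± standard error (SE), and each adjusted p comes from edgeR's quasi-likelihood test with Benjamini-Hochberg (BH) adjustment over 12327 genes. In bulk libraries, fewer cells of a type and less RNA per cell cannot be told apart. The first principal component of the 16 donor libraries held 61.6% of the variance and separated the compartments. The libraries also differed in markers of cells that are not macrophages. The 37 genes of a neutrophil list took 3.92 to 10.5% of UMIs in donor leptomeninges and 0.123 to 1.19% in donor parenchyma. The 16 genes of a choroid plexus and ependymal list took 0.00264 to 0.0421% and 1.70 to 3.57%, the latter mostly from the gene Ttr. Their part in the differences below was not tested.

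The markers of the compartments separated the 16 libraries. Cbr2, carbonyl reductase 2, a gene of border macrophages (mm10 chromosome 11, 120729489 to 120732114), was at 656 to 1314 CPM (median 1085) in donor leptomeninges and at 25.9 to 49.5 CPM (median 34.9) in donor parenchyma. Its difference was 4.89 ± 0.16 (edgeR adjusted p = 3.01e-20), and no library of one side overlapped the other. Mgl2, a galactose-binding C-type lectin also called CD301b (mm10 chromosome 11, 70130329 to 70137550), was at 728 to 949 CPM (median 829) against 32.5 to 80.97 CPM (median 63.4), a difference of 3.83 ± 0.12. Ccl7, a chemokine that attracts monocytes (mm10 chromosome 11, 82045712 to 82047525), was at 144 to 294 CPM (median 229) against 11.9 to 27.6 CPM (median 17.2), a difference of 3.58 ± 0.17. All 3 were thus higher in every leptomeningeal library. Tmem119, a membrane protein that marks microglia (mm10 chromosome 5, 113793729 to 113800516), went the other way, at 90.2 to 208 CPM (median 124) against 707 to 1157 CPM (median 911), a difference of -2.79 ± 0.16 (adjusted p = 2.75e-13). Host microglia had 3523 to 4227 CPM of Tmem119, so donor parenchymal cells lay between donor leptomeningeal cells and host microglia. Host leptomeninges had 414.5 to 1024 CPM, a range that overlapped donor parenchyma. Cbr2 also lay between the host levels, below host leptomeninges at 1946 to 3073 CPM and, in donor parenchyma, above host microglia at 4.56 to 9.88 CPM. Mgl2 resembles its neighbour Clec10a, so reads of this pair could be split. The markers of border macrophages and of microglia thus lay on the sides their labels name.

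**Figure D1:**
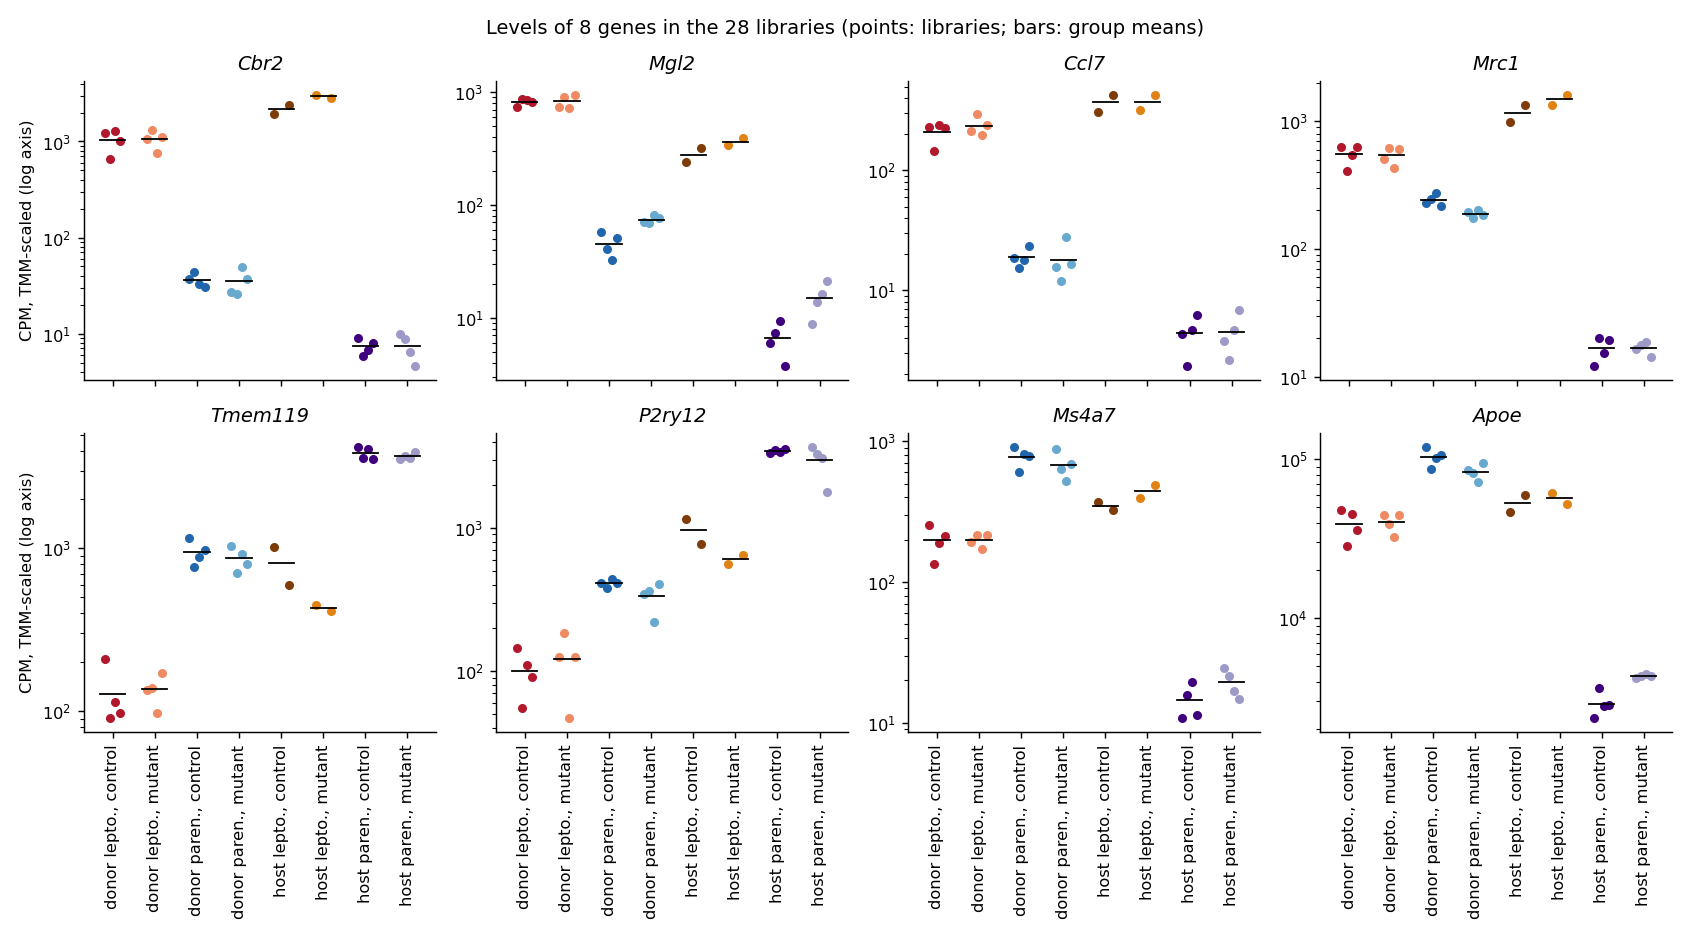
Each panel gives 1 gene's level in CPM (log axis) in the 28 libraries, with a point per library and a bar at each group mean; the groups are donor and host cells of leptomeninges (lepto.) and parenchyma (paren.) in control and mutant chimeras. Cbr2, Mgl2, Ccl7 and Mrc1 were higher in donor leptomeninges and Tmem119, P2ry12, Ms4a7 and Apoe in donor parenchyma, and Ms4a7 and Apoe were in the opposite order in host cells.

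Sequence upstream of the start site is shown for 2 genes that were higher in leptomeninges and 2 that were higher in parenchyma, to set genes that moved apart beside each other. The 250 bases before the RefSeq start (build GRCm38.p6, that of mm10) are given 5′ to 3′ on the gene's strand. Capitals mark full matches on either strand to GAGGAAGT (a PU.1 string), TGANTCA (AP-1) or TTGCNNAA (C/EBP), where N is any base. PU.1 is the master factor of myeloid cells, AP-1 acts downstream of many activating signals, and C/EBP factors drive monocyte and granulocyte genes.
Cbr2 (mm10 chr11:120732022-120732271, minus strand): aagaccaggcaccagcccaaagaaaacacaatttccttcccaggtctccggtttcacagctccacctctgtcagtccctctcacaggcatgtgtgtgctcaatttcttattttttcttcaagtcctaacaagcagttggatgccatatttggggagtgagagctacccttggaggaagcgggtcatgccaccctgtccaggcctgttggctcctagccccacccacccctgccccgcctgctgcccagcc
Pf4 (mm10 chr5:90772185-90772434, plus strand): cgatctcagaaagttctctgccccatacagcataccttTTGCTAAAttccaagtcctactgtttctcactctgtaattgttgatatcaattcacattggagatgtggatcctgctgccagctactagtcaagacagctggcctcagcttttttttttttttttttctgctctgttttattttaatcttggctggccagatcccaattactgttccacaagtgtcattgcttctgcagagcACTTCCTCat
P2ry12 (mm10 chr3:59262986-59263235, minus strand): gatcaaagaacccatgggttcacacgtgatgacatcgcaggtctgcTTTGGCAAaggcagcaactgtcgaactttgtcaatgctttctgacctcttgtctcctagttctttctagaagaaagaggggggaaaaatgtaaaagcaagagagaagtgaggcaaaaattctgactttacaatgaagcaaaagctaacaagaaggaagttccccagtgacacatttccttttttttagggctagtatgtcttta
Trem2 (mm10 chr17:48346151-48346400, plus strand): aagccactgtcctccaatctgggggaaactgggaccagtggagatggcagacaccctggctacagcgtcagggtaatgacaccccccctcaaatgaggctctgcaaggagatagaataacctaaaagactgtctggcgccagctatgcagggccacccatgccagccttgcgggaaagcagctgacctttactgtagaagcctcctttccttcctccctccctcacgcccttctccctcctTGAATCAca
The Cbr2 window held 0 full matches, Pf4 held 1 PU.1 and 1 C/EBP match, P2ry12 held 1 C/EBP match and Trem2 held 1 AP-1 match (TGAATCA). Near matches were not counted. The Cbr2 window has gaggaagc, which differs from the PU.1 string in its last base, and P2ry12 has aaggaagt, which differs in its first. The PU.1 string was in 4.15% of the 1613 windows of genes called higher past 2-fold, in 1.57% of the 2171 windows of genes called lower past 2-fold, in 2.69% of the 12189 windows of all genes tested and in 2.44% of all 32851 windows. The AP-1 motif was in 6.32%, 4.38%, 4.48% and 6.75%, and the C/EBP motif in 9.11%, 7.37%, 7.74% and 9.56% of the same sets. Windows were found for 9428 of the 12327 genes tested. A match is a string of letters and was not tested as a binding site.

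Across the transcriptome the compartments differed in most genes tested. Of 12327 genes, 7650 were called (62.1%). Of these, 3754 were higher in donor leptomeninges (30.5% of those tested) and 3896 were lower (31.6%), at an adjusted p under 0.05. Past 2-fold, 1674 were higher (13.6%) and 2204 lower (17.9%). These shares are the background for every list count in donor cells below. A list near them is not set apart from all genes. For 3149 genes (25.5%) no leptomeningeal library overlapped a parenchymal one. Scaling by library totals alone gave 2723 higher and 5150 lower, and moved the median difference of all genes from -0.03 to -0.28, so differences near 0 take their sign from the scaling. With every library thinned to 479077 UMIs, 2342 genes were higher and 2729 lower of 8986 tested.

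Border macrophage genes were higher in the marrow-derived cells of the leptomeninges. Of the 40 listed genes, all tested, 32 were higher (30.5% of all genes tested were), 28 of them past 2-fold, and 2 were lower (31.6%), with a median difference of 1.83 against -0.03 over all genes. With totals alone as the scaling, 30 were higher and 6 lower. Fcna, a ficolin that binds sugars on microbes (mm10 chromosome 2, 25624666 to 25628030), was at 68.4 to 209 CPM (median 166) in donor leptomeninges and at 0 to 4.22 CPM (median 0) in donor parenchyma, a difference of 6.72 ± 0.52 that rests on 8 UMIs in the parenchymal libraries. Without control parenchymal library 2 its difference was 8.76, and without mutant parenchymal library 3 it was 7.54. Folr2, a folate receptor of tissue-resident macrophages (mm10 chromosome 7, 101839988 to 101857194), was at 176 to 416 CPM (median 338) against 3.36 to 16.5 CPM (median 6.75), a difference of 5.26 ± 0.25. Lyve1, a hyaluronan receptor of macrophages along vessels, was at 107 to 253 CPM (median 222) against 0 to 22.9 CPM (median 2.05), a difference of 4.63 ± 0.40. These receptors were near the counting limit in most donor parenchymal libraries, and a single mutant library, replicate 3, held the highest Lyve1 level there. Without that library the Lyve1 difference was 5.74. F13a1, the A subunit of coagulation factor XIII, differed by 3.80 ± 0.20, Wfdc17, a small secreted antiprotease-like protein, by 3.16 ± 0.15, and Cd163, the haptoglobin-hemoglobin receptor, by 2.74 ± 0.39. Without control parenchymal library 2 the Cd163 difference was 4.17.

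Other members of the border list were at high levels on both sides. Mrc1, the mannose receptor CD206 (mm10 chromosome 2, 14229392 to 14332057), was at 408 to 629 CPM (median 578) in donor leptomeninges and 175 to 275 CPM (median 208) in donor parenchyma. The sides did not overlap, but the difference of 1.36 ± 0.10 was smaller than that of Cbr2, and host microglia had 12.03 to 20.1 CPM. Pf4, platelet factor 4, a chemokine of megakaryocytes and border macrophages, was at 977 to 1866 CPM (median 1625) against 222 to 428 CPM (median 329), a difference of 2.21 ± 0.13, with 15.3 to 30.9 CPM in host microglia. Every donor parenchymal library thus had more Mrc1 and Pf4 than every host microglia library. Choroid plexus and ependymal genes also took more of the donor parenchymal libraries (1.70 to 3.57% of UMIs) than of host microglia (0.00049 to 0.0183%). Whether border macrophages of the choroid plexus contributed to the Mrc1 and Pf4 levels was not tested. Ms4a7, a tetraspanning membrane protein of macrophages (mm10 chromosome 19, 11321039 to 11336146), was lower in leptomeninges, at 134 to 253 CPM (median 203) against 526 to 916 CPM (median 735), a difference of -1.87 ± 0.12 (adjusted p = 4.87e-14). The other member called lower was Ednrb, the endothelin receptor B, chosen after its values were seen, with a difference of -0.81 ± 0.25.

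C-type lectins formed a broad block on the leptomeningeal side. Of 45 listed, 35 were tested. Of these, 30 were higher (30.5% of all genes tested were) and the other 5 did not pass the test, with a median of 2.26. With totals alone, 28 were higher and 3 lower. Clec4a1 differed by 2.63 ± 0.13 and Clec4a2, an inhibitory dendritic cell receptor, by 2.49 ± 0.12. Clec7a, the beta-glucan receptor Dectin-1, differed by 1.90 ± 0.10. Cd209a, a mouse homolog of DC-SIGN, differed by 3.28 ± 0.16. The lectin genes lie in clusters of similar copies, so reads could be split between neighbours.

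Scavenger and efferocytosis genes, for the uptake of modified proteins and dying cells, were mixed. Of 31 tested, 18 were higher and 9 lower (median 0.66). Fcgrt, the neonatal Fc receptor that recycles IgG, differed by 2.32 ± 0.09, Gas6, a bridge between phosphatidylserine and its receptor kinases, by 1.25 ± 0.11, and Anxa1, an annexin abundant in neutrophils, by 4.52 ± 0.28. On the parenchymal side were Mertk, a receptor kinase for Gas6 (-0.87 ± 0.11), Itgb5, the integrin beta 5 subunit (-1.32 ± 0.10), Havcr2, the receptor TIM-3 (-1.53 ± 0.10), and Scarb2, a lysosomal scavenger receptor family member (-1.63 ± 0.09). The ligand Gas6 and its receptor Mertk thus lay on opposite sides.

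Chemokine ligands were higher in leptomeninges for 18 of 25 tested and lower for 4 (median 1.70). Beside Ccl7, Ccl24, an eosinophil attractant, differed by 3.87 ± 0.23, Ccl9 by 3.69 ± 0.23 and Ccl6 by 1.76 ± 0.10, the last pair being ligands of Ccr1. The 4 lower ligands included Ccl27a, a skin-associated chemokine with near-identical copies in the mouse genome (-2.02 ± 0.24), and Cxcl14 (-1.43 ± 0.21). Chemokine and other chemoattractant receptors were higher for 10 of 17 and lower for 4. Ccr2, the receptor for Ccl2 and Ccl7 by which inflammatory monocytes leave the marrow, was at 444 to 555 CPM (median 504) in leptomeninges and 29.2 to 119.8 CPM (median 68.9) in parenchyma, a difference of 2.82 ± 0.20. Cxcr2 (3.73 ± 0.38) and Fpr2 (4.53 ± 0.27), receptors for neutrophil attractants, were higher beside a neutrophil list whose share of UMIs also was. S1pr1, a sphingosine phosphate receptor, was lower (-2.25 ± 0.15), as was Cxcr4, the receptor for Cxcl12 that holds cells in the marrow (-0.94 ± 0.13). Cx3cr1, the fractalkine receptor of microglia and monocytes, was at 697 to 988 CPM (median 773) against 597 to 1030 CPM (median 859.6), and the sides overlapped. Its difference of -0.03 ± 0.14 did not pass the test (adjusted p = 0.858) and took the opposite sign with either mutant parenchymal library 1 or control leptomeningeal library 2 left out.

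Monocyte genes were almost all higher in leptomeninges, 31 of 32 tested, 30 of them past 2-fold, with a median of 3.45. Ly6c2, the surface antigen of classical monocytes and 1 of a family of similar genes, was at 528 to 1392 CPM (median 993) in leptomeninges and 16.5 to 130.2 CPM (median 36.2) in parenchyma, a difference of 4.31 ± 0.26. Emilin2, an extracellular glycoprotein, differed by 3.51 ± 0.15, Cd44, a hyaluronan receptor, by 2.49 ± 0.14 and Ifitm2, an interferon-induced membrane protein, by 2.38 ± 0.11. The 1 lower member was Ace, the angiotensin-converting enzyme that marks nonclassical monocytes (-0.56 ± 0.15). The list as a whole took 1.13 to 1.69% of UMIs in donor leptomeninges, 0.145 to 0.270% in donor parenchyma and 0.373 to 0.397% in host leptomeninges, with no overlap among these. Lyz2, lysozyme, an enzyme of myeloid cells, was at a mean of 15766 CPM against 6457 CPM (1.29 ± 0.08).

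Genes of neutrophils and of T and natural killer cells were also mostly higher, while lists of other blood cells were mixed or mostly not called. Neutrophil genes were higher for 33 of 34 tested (median 4.28). S100a9, a calcium-binding protein that neutrophils hold in bulk, was at 15730 to 38978 CPM (median 24793) in donor leptomeninges and 135 to 1623 CPM (median 237) in donor parenchyma, a difference of 5.997 ± 0.49. Its partner S100a8 differed by 5.07 ± 0.48 and Cd177, a neutrophil surface protein, by 5.91 ± 0.34. Of 37 listed genes in the table, 1 was at 0 in all donor parenchymal libraries and 0 in the leptomeningeal ones. The 1 lower member was Csf3r, the G-CSF receptor (-1.06 ± 0.10). Genes of T and natural killer cells were higher for 24 of 27, and 15 of 16 at the depth of the shallowest library, and the list took 0.0652 to 0.109% against 0.0274 to 0.0591% of UMIs. B cell genes were higher for 6 and lower for 2 of 12, with 3 higher of 8 at that depth, and the list's shares overlapped, at 0.0745 to 0.434% against 0.0791 to 0.121%. Erythroid genes were higher for 2 and lower for 1 of 7, and mast cell and basophil genes were higher for 2 of 7, while the other 5 did not pass. Meningeal fibroblast genes were higher for 17 and lower for 2 of 21, with 11 higher of 14 at that depth, led in amount by Ptgds, prostaglandin D synthase (4788 against 514 CPM on average, 3.22 ± 0.11).

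Genes of brain cells lay on the parenchymal side. All 15 tested choroid plexus and ependymal genes were lower in leptomeninges, as were 22 of 24 astrocyte, 21 of 24 neuron and 9 of 14 oligodendrocyte genes. Ttr, transthyretin, the main secreted protein of choroid plexus epithelium, was at 4.81 to 446 CPM (median 42.3) in donor leptomeninges and 15680 to 33301 CPM (median 23534) in donor parenchyma, a difference of -7.49 ± 0.88. Leptomeningeal libraries control 4 and mutant 3 held the highest levels on their side, and without the one or the other the difference was -8.45 or -8.29. Host microglia, from the same tissue, had 2.98 to 161 CPM, a level below that of every donor parenchymal library. Clu, clusterin (-4.38 ± 0.22), Mt3, a brain metallothionein (-5.67 ± 0.31), and Camk2a, a neuronal kinase (-6.24 ± 0.34), followed the same order. The astrocyte list took 0.189 to 0.919% and the neuron list 0.0927 to 0.366% of UMIs in donor parenchyma, against 0.0446 to 0.0620% and 0.0419 to 0.0583% in donor leptomeninges. No choroid plexus or astrocyte member was at 0 in all libraries of either donor side. With the genes of all 12 lists of other cell types left out before scaling, 3703 genes were higher and 3788 lower of 12127 tested.

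**Figure D2:**
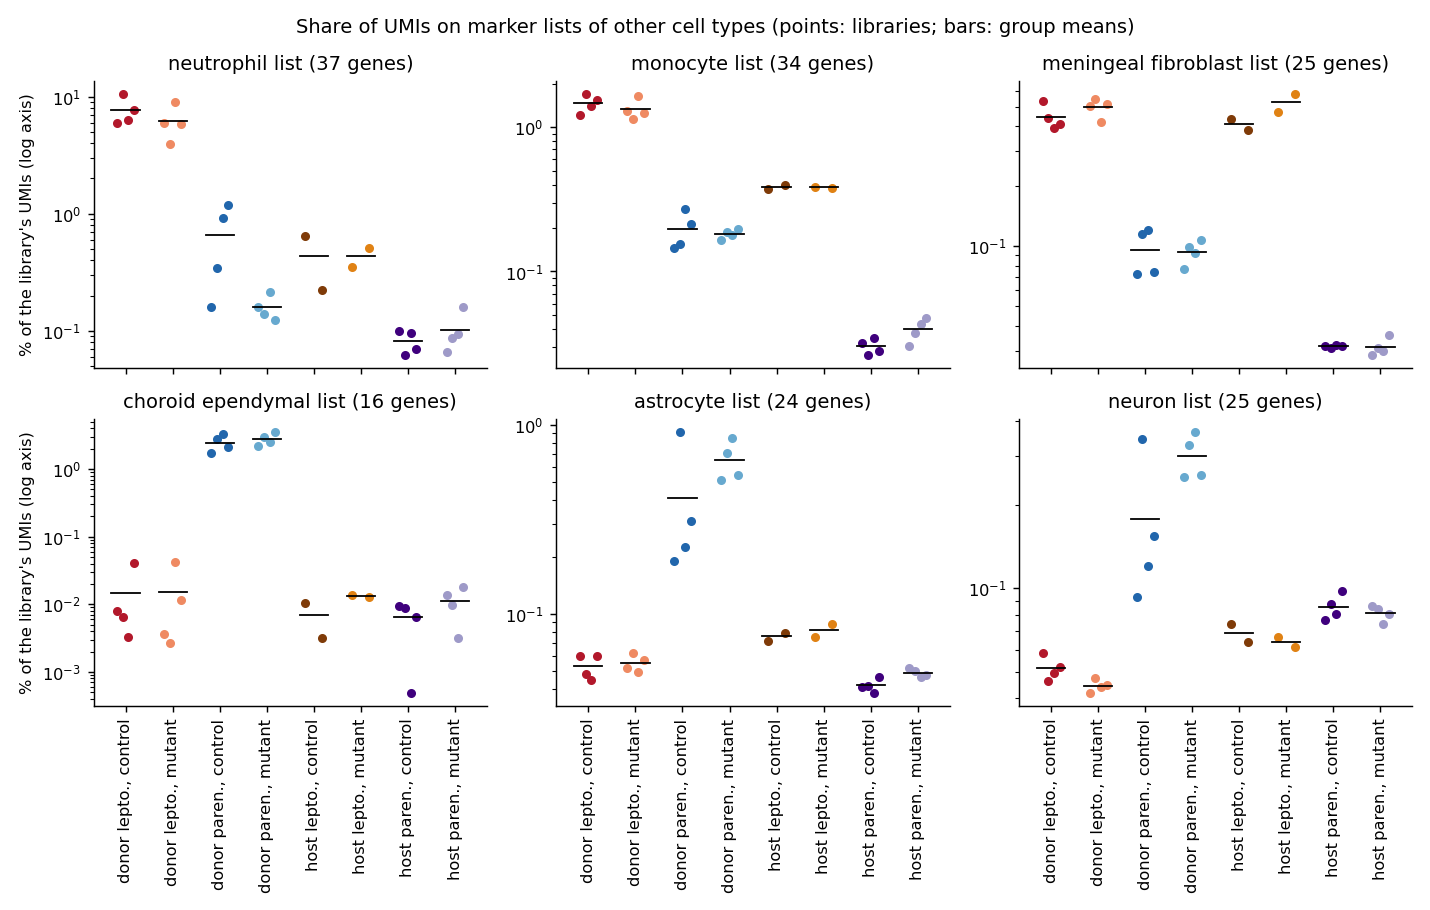
Each panel gives the share of a library's UMIs (in percent, log axis) on 1 list of marker genes, with a point per library and a bar at each group mean in the 8 groups. Neutrophil, monocyte and fibroblast genes took more of the donor leptomeningeal libraries, while choroid plexus, astrocyte and neuron genes took more of the donor parenchymal libraries. Most of the choroid plexus share in donor parenchyma was Ttr, and most of the fibroblast share in donor leptomeninges was Ptgds. Choroid plexus and astrocyte shares of both host populations lay below every donor parenchymal library. The neuron share of host parenchyma (0.0739 to 0.0977%) overlapped donor parenchyma (0.0927 to 0.366%). The fibroblast share of host leptomeninges (0.383 to 0.579%) overlapped donor leptomeninges (0.390 to 0.545%).

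Antigen presentation genes were higher in leptomeninges. Of 15 tested genes of the MHC class II list, 13 were higher, 7 past 2-fold, with a median of 0.98. Over all genes tested the shares were 30.5% and 13.6%. H2-Ab1, a beta chain that presents peptides to CD4+ T cells (mm10 chromosome 17, 34257689 to 34269419), was at 15847 to 24679 CPM (median 20554) against 4740.5 to 6636 CPM (median 5713), and the sides did not overlap (1.87 ± 0.12). H2-Aa, its alpha chain, differed by 1.63 ± 0.17, Cd74, the invariant chain, by 1.40 ± 0.12, H2-DMb1, a peptide loader, by 0.98 ± 0.09, and Ciita, the class II transactivator, by 2.24 ± 0.13. The 1 lower member was Cd86, a costimulatory ligand (-0.73 ± 0.21). Dendritic cell markers were higher for 13 of 20 and lower for 5. The dendritic cell list took 0.0517 to 0.0766% of UMIs against 0.0349 to 0.0522%, and its part in the class II difference was not tested.

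Homeostatic microglia genes were lower in the leptomeningeal cells. Of 40 tested, 35 were lower, 26 of them past 2-fold, and 1 was higher, with a median of -1.61. Over all genes tested, 31.6% were lower, 17.9% past 2-fold, and 30.5% were higher. P2ry12, the ADP receptor by which microglial processes reach injury (mm10 chromosome 3, 59216272 to 59262871), was at 46.9 to 186 CPM (median 118) in leptomeninges and 221 to 441 CPM (median 396) in parenchyma, a difference of -1.75 ± 0.23 (adjusted p = 8.1e-07). Sall1, a zinc finger factor that maintains microglial identity, was at 0.382 to 6.08 CPM (median 2.38) against 8.26 to 33.1 CPM (median 14.3), a difference of -2.53 ± 0.32, and of -3.46 at the thinned depth. Libraries of the sides did not overlap for either gene, and Sall1 in donor parenchyma remained under 265 to 314 CPM, the range of host microglia. Host leptomeninges had 561.7 to 1149 CPM of P2ry12, above every donor parenchymal library. Their Sall1 level, 11.42 to 48.37 CPM, overlapped donor parenchyma. Serpine2, a protease inhibitor, differed by -3.73 ± 0.15, Adgrg1, the adhesion receptor GPR56, by -3.19 ± 0.18, and Siglech, a sialic acid-binding lectin, by -1.74 ± 0.20. The 1 higher member was Kctd12, an auxiliary subunit of GABA-B receptors (1.36 ± 0.18).

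**Figure D3:**
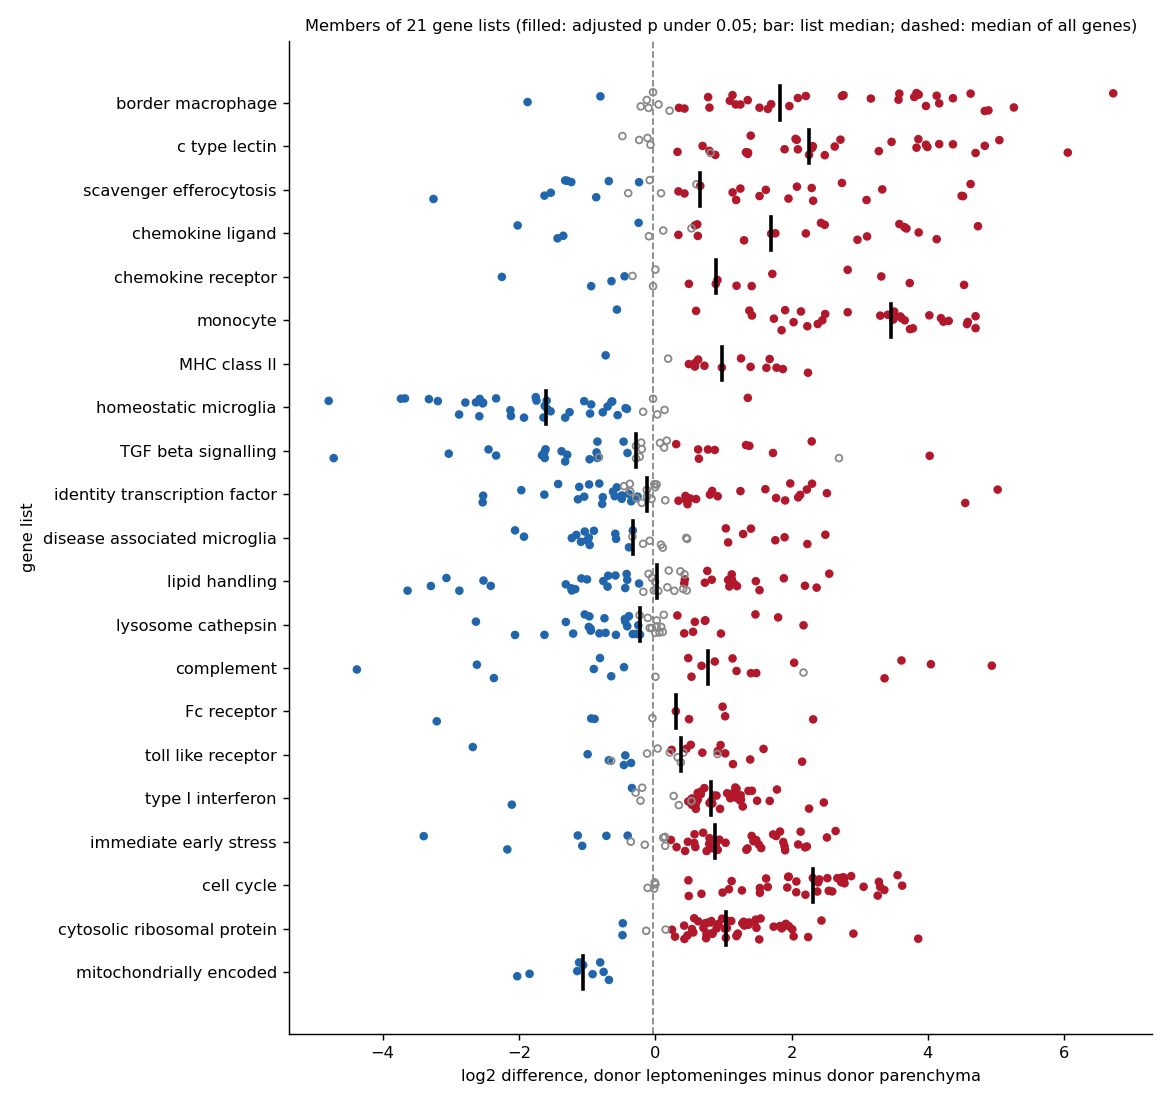
Each point is a gene of 1 of 21 lists at its log2 difference (donor leptomeninges minus donor parenchyma), filled red where called higher, filled blue where called lower and open otherwise; black bars are list medians and the dashed line is the median of all 12327 genes, -0.03. The monocyte list had a median of 3.45, border macrophages 1.83 and homeostatic microglia -1.61.

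TGF-beta signalling genes were mixed. Of 37 tested, 10 were higher and 17 lower (median -0.28), against 30.5% and 31.6% of all genes. At the thinned depth 8 were higher and 11 lower of 29. With library totals alone, the split was 8 higher and 23 lower. The ligand Tgfb1 (0.87 ± 0.09) and Nrros, which anchors latent TGF-beta on microglia and macrophages (1.33 ± 0.09), were higher in leptomeninges, as was Itgb3, the integrin beta 3 subunit (2.30 ± 0.27). The receptor Tgfbr1 (mm10 chromosome 4, 47353222 to 47414931) was at 107 to 201 CPM (median 142) against 461 to 965 CPM (median 769), a difference of -2.34 ± 0.14 without overlap. Its feedback inhibitors Smad7 (-1.63 ± 0.14) and Pmepa1 (-1.62 ± 0.13), which the pathway itself induces, were lower as well. Tgfb1 and its anchor thus lay on the leptomeningeal side, and Tgfbr1 and these inhibitors on the parenchymal side.

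Transcription factors of macrophage identity were higher for 21 and lower for 20 of 53 tested (median -0.12), against 30.5% and 31.6% of all genes. At the thinned depth 13 were higher and 17 lower of 44. With library totals alone, the split was 16 higher and 28 lower. Beside Sall1, the parenchymal side held Mef2a (-1.12 ± 0.12) and Id2 (-0.97 ± 0.09). The leptomeningeal side held Klf4 (2.22 ± 0.10) and Nr4a1 (1.91 ± 0.12), both needed for monocyte subsets, and Egr2 (2.52 ± 0.17) and Atf3 (2.10 ± 0.12), which are also immediate early genes. Spi1, encoding PU.1, differed by 0.80 ± 0.08, with a mean of 889 CPM against 509.9 CPM.

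Genes of disease-associated microglia, a state seen around amyloid plaques, were higher for 8 and lower for 14 of 29 tested (median -0.33). Of all genes tested, 30.5% were higher and 31.6% lower. Apoe, the lipid carrier apolipoprotein E (mm10 chromosome 7, 19696109 to 19699188), was at 28341 to 47977 CPM (median 41854) in donor leptomeninges and 71592 to 120270 CPM (median 90484) in donor parenchyma, a difference of -1.22 ± 0.10 without overlap (adjusted p = 1.11e-13). Trem2, a lipid-sensing receptor required for that state, was at 413 to 727 CPM (median 648) against 1709 to 2582 CPM (median 2396), a difference of -1.93 ± 0.10. Ctsd, the lysosomal protease cathepsin D, was at 1476 to 2523 CPM (median 2277) against 7592 to 10695 CPM (median 9090.1), a difference of -2.06 ± 0.10. All 3 were higher in each parenchymal library, as were Cd9 (-1.16 ± 0.10) and Cd63 (-0.98 ± 0.08), tetraspanins of endosomes and the cell surface. Cd52, a short glycoprotein of leukocytes, was higher in leptomeninges (2.50 ± 0.09).

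Lipid handling genes were higher for 17 and lower for 20 of 50 tested (median 0.02), against 30.5% and 31.6% of all genes. Enzymes of the leukotriene and prostaglandin routes lay on different sides, with Alox5ap, the activator of 5-lipoxygenase, higher in leptomeninges (2.37 ± 0.08) and Ptgs1, cyclooxygenase 1, lower (-1.17 ± 0.09). Pltp, a phospholipid transfer protein, was higher (2.20 ± 0.11), and Scd2, a fatty acid desaturase that is also abundant in brain tissue, was lower (-3.06 ± 0.24). Lysosomal genes were higher for 10 and lower for 22 of 43, and 5 and 23 of 39 at the thinned depth. Beside Ctsd, Laptm4a, a lysosomal membrane protein, was lower (-1.31 ± 0.08). Psap, the saposin precursor (0.74 ± 0.08), and Npc2, a cholesterol carrier (0.73 ± 0.08), were higher.

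Complement genes were higher for 13 and lower for 7 of 22 tested (median 0.78). The 3 chains of C1q, which starts the classical pathway, were lower in leptomeninges, with differences of -0.46 ± 0.09 for C1qa, -0.90 ± 0.11 for C1qb and -0.81 ± 0.09 for C1qc. C4b, the next component, which has a near-identical neighbour C4a, was higher (3.61 ± 0.18), as was Cfp, properdin of the alternative pathway (3.37 ± 0.12). Fc receptor genes were higher for 5 and lower for 3 of 9. The signalling chain Fcer1g was higher (1.03 ± 0.09), and Fcrls, a microglial Fc receptor-like molecule (-0.94 ± 0.10), and Fcrl1 (-3.21 ± 0.18) were lower. Toll-like receptor genes were higher for 11 and lower for 6 of 25, and 7 and 6 of 22 at the thinned depth. With library totals alone, the split was 8 higher and 7 lower. The adaptor Myd88 (1.14 ± 0.10) and the inhibitory kinase Irak3 (2.15 ± 0.22) were higher, while the receptors Tlr2 (-0.36 ± 0.09) and Tlr12 (-2.68 ± 0.17) and Unc93b1, which carries intracellular Toll-like receptors to endosomes (-0.99 ± 0.08), were lower.

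Type I interferon response genes were higher in leptomeninges for 35 of 43 tested and lower for 2 (median 0.82). With library totals alone 27 were higher (median 0.58), and at the thinned depth 26 of 39 were. The list took 0.516 to 0.793% of UMIs in donor leptomeninges and 0.487 to 0.793% in donor parenchyma, ranges that overlapped. Oas3, an antiviral RNA sensor (2.47 ± 0.23), and Gbp2, a guanylate-binding protein (2.26 ± 0.23), were examples. The lower members were Irf9, part of the interferon-activated transcription complex (-0.34 ± 0.11), which did not pass without control library 1 and mutant library 4 of the parenchyma, and Bst2. Bst2, tetherin, which holds virus particles on the cell, was at 358 to 791 CPM (median 518) against 1816 to 2834 CPM (median 2358), a difference of -2.10 ± 0.14 without overlap. It moved against 35 members of its own list.

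Immediate early and stress genes were higher for 36 of 47 and lower for 6 (median 0.88). With library totals alone, the split was 30 higher and 8 lower. Actinomycin D, a transcription blocker, was present during handling, which differed between the compartments. The part of handling in these differences was not tested. Btg2, an antiproliferative gene (1.52 ± 0.09), Gadd45b (1.83 ± 0.10) and Mcl1, a survival factor (1.41 ± 0.08), were higher. Hspa1b, an inducible HSP70 chaperone with a near-identical neighbour, was at 21.8 to 88.2 CPM (median 43.95) in leptomeninges and 302 to 688 CPM (median 519) in parenchyma, a difference of -3.40 ± 0.22, and Rhob, a small GTPase (-2.17 ± 0.11), and Gadd45g (-0.72 ± 0.09) were also lower. Host cells had Hspa1b in the same order, at 13.1 to 41.7 against 112 to 228 CPM.

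Cell cycle genes were higher in leptomeninges for 39 of 43 tested, while the other 4 did not pass, with a median of 2.31. Top2a, the topoisomerase of dividing cells, was at 67.4 to 185 CPM (median 113) against 3.24 to 23.5 CPM (median 10.4), a difference of 3.36 ± 0.24 without overlap. Kif23, a kinesin of cell division (3.28 ± 0.26), and Cdc20, an activator of mitotic exit (3.06 ± 0.27), were further examples. In host cells 15 of the 43 were higher and 4 lower (31.1% and 25.7% of all genes were). Top2a in host cells was at 6.72 to 12.3 CPM in leptomeninges and 2.71 to 7.41 CPM in parenchyma. The fold of the donor cells was larger than that of the host cells for 25 members and smaller for 1 in the test of that difference. Neutrophil and other blood cell markers were higher in the same libraries, and their part in the cell cycle difference was not tested.

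Cytosolic ribosomal protein genes were higher for 51 of 55 tested and lower for 2, with a median of 1.04. Rpl34 (2.24 ± 0.09) was an example, and the lower members were Rpl13 (-0.48 ± 0.08) and Rpl15 (-0.48 ± 0.10). Ribosomal protein genes have many processed pseudogenes, between which the authors' counting could have split reads. All 9 tested genes of the mitochondrial genome were lower in leptomeninges (median -1.06), and the list took 1.09 to 1.65% of UMIs there and 1.58 to 4.71% in parenchyma, ranges that overlapped. Examples were mt-Co1, a cytochrome oxidase subunit (-1.84 ± 0.21), and mt-Cytb, cytochrome b (-1.06 ± 0.20). Within control cells alone, 4 of the 9 mitochondrial genes were called lower and 5 did not pass. Within mutant cells 8 were called lower and 1 did not pass. Glycolysis and hypoxia genes were higher for 15 and lower for 10 of 32 (13 and 13 with library totals alone), with Ldha, lactate dehydrogenase A (1.99 ± 0.10), and Pkm, pyruvate kinase (1.36 ± 0.10), higher and Hk2, hexokinase 2, lower (-1.62 ± 0.17).

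Cytokine and growth factor genes were higher for 13 and lower for 11 of 35 tested, near the 30.5% and 31.6% of all genes. At the thinned depth 8 were higher and 11 lower of 25. With library totals alone, the split was 10 higher and 16 lower. The inflammatory cytokine Il1b (1.84 ± 0.14) and its natural antagonist Il1rn (2.16 ± 0.26) were both higher in leptomeninges. The growth factors Pdgfa (-1.34 ± 0.12), Vegfb (-1.30 ± 0.10) and Fgf2 (-2.34 ± 0.27) and the cytokine Mif (-1.42 ± 0.10) were lower. Cytokine and growth factor receptor genes were higher for 15 and lower for 11 of 41, also near the shares of all genes. At the thinned depth 9 were higher and 13 lower of 35. With library totals alone, the split was 11 higher and 16 lower. Adhesion and matrix genes were higher for 28 and lower for 20 of 55. Itgb7, an integrin subunit of lymphoid homing and mononuclear phagocytes (3.88 ± 0.17), and Itgb2, the common beta subunit of leukocyte integrins (1.48 ± 0.09), were higher. Itga6, a laminin receptor subunit (-2.01 ± 0.12), and F11r, the junctional adhesion molecule A (-2.18 ± 0.11), were lower.

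Among genes outside the lists of other cells, the largest differences on the leptomeningeal side after Fcna were Serpinb10, a serine protease inhibitor of blood cells (6.42 ± 0.51, and 4.55 in voom of limma), Retnla, a resistin-like secreted protein of alternatively activated macrophages (6.10 ± 0.57). Ly6a2, of the Ly6 family of similar genes (5.10 ± 0.33), Mgst2, a glutathione transferase (5.02 ± 0.32), and Nfe2, a factor of megakaryocyte and erythroid genes (5.02 ± 0.36), were among those that followed. Retnla was present at a mean of 88.03 CPM in donor leptomeninges against 7.24 CPM in host leptomeninges, and without control parenchymal library 4 its difference was 7.91. On the parenchymal side several of the largest differences rested on 2 UMIs in all 8 leptomeningeal libraries together. Kcne2, a potassium channel subunit of choroid plexus and stomach, had 161 UMIs in parenchyma, a ratio of 222 (95% exact counting interval 60.5 to 1850). Slco1c1, a thyroid hormone transporter of brain barriers, had 145 UMIs, a ratio of 200 (54.4 to 1670). With so few leptomeningeal UMIs, the ratio depends on the 1 or 2 libraries that hold them. Pcp2, a Purkinje cell protein (-6.27 ± 0.39), and Car12, a carbonic anhydrase (-6.24 ± 0.38), were further genes with large differences on that side. Lying outside the lists of other cells does not place a gene in marrow-derived cells. The part of choroid plexus, barrier or neuronal RNA in these differences was not tested.

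The compartment difference was measured within each marrow genotype to compare mutant with control marrow. In control cells 5966 genes were called (48.4%), of which 2990 were higher (24.3%) and 2976 lower (24.1%), and in mutant cells 6235 were called (50.6%), of which 3060 were higher (24.8%) and 3175 lower (25.8%). The higher calls shared 2483 genes, 83.0% of the control and 81.1% of the mutant calls, and the lower calls shared 2389, 80.3% and 75.2%. Only Hps6 and Tnk2 were called in opposite directions (0.0162% of genes tested), chosen here after their values were seen. The test of the difference between the genotypes' compartment folds called 0 of 12327 genes in edgeR, with 787 at an unadjusted p under 0.05. DESeq2 called 2 and voom 1, and without control parenchymal library 2 edgeR called 149, of which 9 were higher and 140 lower in the mutant. Cbr2 differed by 4.85 ± 0.24 in control and 4.92 ± 0.23 in mutant cells, and Tmem119 by -2.90 ± 0.23 and -2.68 ± 0.23. Mgl2 differed by 4.18 ± 0.18 and 3.49 ± 0.16, and Ms4a7 by -1.97 ± 0.17 and -1.77 ± 0.17. S100a9 differed by 4.94 ± 0.66 in control and 7.05 ± 0.73 in mutant cells, with an edgeR adjusted p of 0.715 for the difference of the folds. Control parenchymal libraries 3 and 4 had 1425 and 1623 CPM of S100a9, and the other donor parenchymal libraries 135 to 432 CPM. For border macrophage genes, 31 were higher in control and 33 in mutant cells, and for homeostatic microglia genes 36 and 29 were lower. Mouse Dnmt3a, a DNA methyltransferase whose counts need not include the human allele, was at a mean of 30.1 CPM in donor leptomeninges and 68.1 CPM in donor parenchyma (-1.16 ± 0.12), with -1.22 ± 0.18 in control and -1.09 ± 0.17 in mutant cells.

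The same compartments were set against each other in host cells, which share no library with the donor comparison. In host cells 6994 genes were called (56.7%), and leptomeninges were higher for 3832 genes (31.1%) and lower for 3162 (25.7%). The donor and host calls shared 2155 higher genes, 57.4% of the donor and 56.2% of the host calls, and 1662 lower genes, 42.7% and 52.6%. The test of donor fold minus host fold called 5208 genes (42.2%), 2351 in the positive (19.1%) and 2857 in the negative direction (23.2%). In host cells the border macrophage list had a median difference of 5.51 with 39 of 40 higher, and 33 members had a smaller fold in donor than in host cells. The host homeostatic microglia list had a median of -1.93 with 37 of 40 lower. There the test of the difference called 12 members in the positive and 6 in the negative direction. The border macrophage program was thus less divided between the compartments in donor than in host cells, while microglial genes were called in both directions.

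Single genes showed how the levels lay. Mrc1 was at 986 to 1616 CPM (median 1345) in host leptomeninges and 12.03 to 20.1 CPM (median 17.1) in host microglia, a host difference of 6.28 ± 0.13 against 1.36 ± 0.10 in donor cells (donor minus host -4.92 ± 0.16, edgeR adjusted p = 2.99e-28). Cbr2 differed by 8.37 ± 0.19 in host cells, Pf4 by 7.22 ± 0.17 and Cd163 by 8.38 ± 0.38, and all 3 had smaller donor folds in the test of the difference. Tmem119 differed by -2.67 ± 0.21 in host and -2.79 ± 0.16 in donor cells, and the donor minus host value of -0.12 ± 0.24 did not pass (adjusted p = 0.739). Tgfbr1 likewise had a donor minus host value of -0.10 ± 0.22 that did not pass. Donor cells of both compartments had less Tmem119 than the host cells of the same compartment in every library.

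Some genes were called in opposite directions in donor and host cells, 329 of them higher in donor and lower in host leptomeninges (2.67% of genes tested) and 647 the reverse (5.25%). Ms4a7 was at 323 to 490.5 CPM (median 383) in host leptomeninges and 10.7 to 24.5 CPM (median 16.4) in host microglia (4.54 ± 0.16), the reverse of its order in donor cells, with a donor minus host value of -6.41 ± 0.21. Apoe was at 46595 to 61592 CPM (median 55765) against 2348 to 4467 CPM (median 3931) in host cells (3.95 ± 0.12), also reversed (-5.18 ± 0.15). Bst2 was reversed too, at 739 to 1114 CPM (median 819) against 338 to 408 CPM (median 357) (1.26 ± 0.16, donor minus host -3.37 ± 0.20). For all 3, donor parenchyma had the highest median of the 4 populations and host microglia the lowest, and every donor parenchymal library was above every host microglia library. Pla2g7, an enzyme that cleaves platelet-activating factor (-0.42 ± 0.10 in donor, 5.22 ± 0.14 in host cells), and Cd63 (-0.98 ± 0.08 and 1.23 ± 0.09) had the same pattern of signs. All 9 tested mitochondrial genes were lower in donor and higher in host leptomeninges, where host microglia took 0.114 to 0.348% of UMIs for this list. In the other direction, Alox5ap (2.37 ± 0.08 and -0.31 ± 0.09), Coro1a, an actin regulator of leukocytes (1.82 ± 0.09 and -0.42 ± 0.11), Itgb2 (1.48 ± 0.09 and -0.93 ± 0.11) and H2-Oa, a modulator of class II peptide loading (1.78 ± 0.12 and -1.10 ± 0.14), were higher in donor and lower in host leptomeninges. Ptgds was higher in both, by 3.22 ± 0.11 in donor and 7.62 ± 0.14 in host cells.

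**Figure D4:**
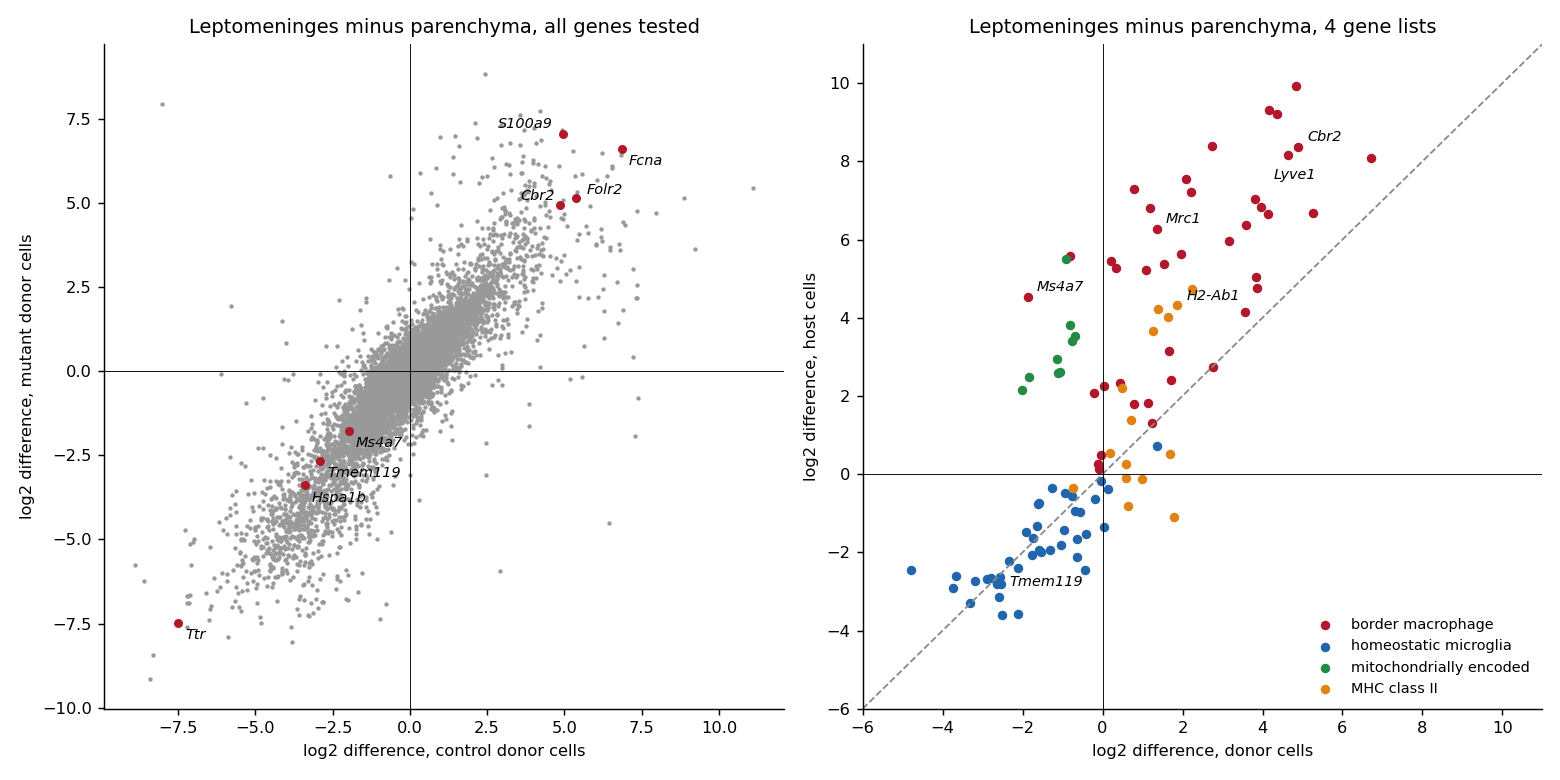
Left, the log2 difference (leptomeninges minus parenchyma) of each of 12327 genes in mutant donor cells (vertical) against control donor cells (horizontal), with 8 genes marked in red. Right, the same difference in host (vertical) against donor cells (horizontal) for 4 gene lists, with a dashed line where both are equal; Ms4a7 and the mitochondrial genes lie at negative donor and positive host values, and most border macrophage genes lie above the dashed line.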

How the data were processed

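The authors deposited 1 table of raw UMI counts per gene (14617 genes, 28 libraries, whole numbers, with no row for unassigned reads). Per the submitters' processing notes the genome was mm10. Aligner and counting settings are not given in the sources used here. Up to 100000 cells were sorted per library, per the labels' protocols, with actinomycin D during handling. The antibody gate was not used here.

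Genes of low count were filtered with edgeR 4.0.16, leaving 12327, and TMM-scaled. All 8 groups entered 1 quasi-likelihood fit without covariates, which also gave the comparison within each genotype, the genotype difference, the host comparison and donor minus host. Calls have a BH-adjusted p under 0.05. Alternatives were DESeq2 1.42.0, voom of limma 3.58.1, other scalings, no filter, the groups alone, thinning, gene lists left out, each library left out and a replicate block. On simulated data with 200 changed genes, 77% of 2-fold and 96% of 4-fold changes were recovered among 12327 genes, with 7 false calls. No libraries of a group agreed within sampling noise.

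Named genes were the 12 largest non-overlapping differences per direction (mean of at least 10 CPM), 5 per direction inside lists of other cells, up to 4 per direction and list with the smallest adjusted p, the 5 per direction of each difference test, and a set of fixed genes, with part of them printed. The members and lists were chosen with earlier results of these data known. Gene locations are from the GENCODE M21 annotation of mm10, matched by symbol. Promoter windows are from RefSeq. Some genes are not reported here.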

Additional observations from a re-analysis of the deposited data

Results flagged for a closer look

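Among 124 groups of 4 libraries (genes and marker shares), 10 held a library whose gap to the others passed Dixon's 95% value for 4 samples, where chance gives about 1 in 20, or 6.2. In donor leptomeninges, control library 2 had 144 CPM of Ccl7 (the others 227 to 239). Mutant library 3 had 129 CPM of Lyve1 (233 to 253) and 1910 CPM of Ctsd (2450 to 2520), both lower. Control library 4 had 396 CPM of Ttr (10.5 to 51.6) and 0.0402% of UMIs on choroid plexus genes (0.00333 to 0.00784%), both higher. In donor parenchyma, control library 2 had 4.22 CPM of Fcna where the others had 0, 1890 CPM of Trem2 (2500 to 2580) and 1860 CPM of Bst2 (2480 to 2590). The same library had 0.919% of UMIs on astrocyte genes (0.189 to 0.310%), and it is the library without which the genotype difference went from 0 to 149 genes. Mutant library 3 of the parenchyma had 22.9 CPM of Lyve1 (0 to 2.16).

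For printed genes called in opposite directions in donor and host cells, the donor minus host fold from edgeR is given here. Such genes are near certain to pass the test of that difference, which 42.2% of all genes tested passed. Their passing it is therefore no further support. Negative values, lower in donor and higher in host leptomeninges, were -6.41 for Ms4a7, -5.18 for Apoe, -5.64 for Pla2g7, -3.37 for Bst2, -2.21 for Cd63, -4.34 for mt-Co1 and -3.67 for mt-Cytb. Positive values were 3.59 for Itgb3, 2.88 for H2-Oa, 2.68 for Alox5ap, 2.42 for Itgb2, 2.24 for Coro1a and 2.10 for Ccl6. Host leptomeninges had 2 libraries per genotype, and the handling of the compartments differed in both comparisons.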

How the results depend on the processing

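Of 145 called genes printed above with their difference, 144 kept their direction and their side of the threshold under every alternative that tested them. With Cx3cr1 the genes followed were 146, of which 140 were tested without neutrophil list genes and 133 without genes of other cell types. The exception was Irf9, at -0.25 and no longer called without control library 1 and mutant library 4 of the parenchyma, the shallowest 2 libraries (479077 and 487382 UMIs). Cx3cr1, not called, turned to 0.0473 without mutant parenchymal library 1 and to 0.0031 without control leptomeningeal library 2. The cause was not tested. Voom moved Lyve1 to 5.84, Ttr to -8.70 and Cd163 to 3.81.

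Thinning every library to 479077 UMIs, which tests fewer genes (8986), gave 5071 calls (2342 higher) in donor cells, 3832 (1837 higher) in control, 3855 (1778 higher, 2077 lower) in mutant and 4478 (2502 higher, 1976 lower) in host cells. For donor minus host it gave 2931 (1079 higher, 1852 lower). All other alternatives for donor cells gave 6528 to 8248 calls. Depth and the number of genes tested changed together under thinning, and their parts were not separated.

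The genotype difference, 0 in edgeR, was 2 (1 higher, 1 lower) in DESeq2 and 1 (lower) in voom. Leaving out 1 library gave 0 to 149 (higher 0 to 9, lower 0 to 140), and 149 came without control parenchymal library 2. The cause was not tested. Whether equal replicate numbers pair the libraries could not be told. Deviations of libraries with the same number correlated between -0.113 and 0.0930, and those with different numbers between -0.138 and 0.163. With a replicate block, donor cells had 7186 calls (3619 higher, 3567 lower) and the genotype difference 5 (4 higher, 1 lower).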
